A study of Mus musculus with 24 samples.

Results

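Trp53, Mdm2, Cdkn1a, Btg2, Ccng1, Casp8 and Trp53inp1 are 7 genes of the p53 pathway and of the apoptotic machinery, of 55487 genes listed for every library. They were chosen by name, and each symbol was matched to its Ensembl identifier through the GRCm38 annotation, with 1 identifier found for each of the 7. Their RNA levels were followed in oocytes and embryos of Nlrp14 knockout mice and of wild-type mice, in a series on female infertility and early embryo arrest. Each genotype had 3 libraries, labelled as biological replicates, at each of 4 stages, which gives 24 libraries in 8 groups. The stages were germinal vesicle (GV) oocytes, metaphase II (MII) eggs, PN5 zygotes, a late pronuclear stage, and 2-cell embryos, with 5 oocytes or embryos pooled per library. NLRP14 is a protein of the NLR family that is made in oocytes. The sources used here do not give the knockout allele, the strain, the age of the females or the genotype of the sires, so a knockout embryo is described only by its label. The question asked of these genes is whether a genotype studied for embryo arrest shows a p53 response in its RNA.

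The p53 protein, the product of Trp53, is a transcription factor that is kept low in resting cells because MDM2, a ubiquitin ligase, marks it for degradation. When DNA damage or other stress frees p53 from MDM2, it switches on genes that stop the cell cycle, repair DNA or start apoptosis, and Mdm2 itself is one of them, so the pathway limits itself. Most of this control acts on the protein, and RNA levels show the targets rather than the activity of p53. In mouse oocytes transcription is largely silent from late growth until the zygote, so that RNA in MII eggs is stored maternal RNA, whereas the main wave of embryonic transcription begins at the 2-cell stage.

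The 7 genes fall into 3 roles. Trp53 (ENSMUSG00000059552, chromosome 11, 69580359 to 69591873, plus strand) encodes the factor itself, Mdm2 (ENSMUSG00000020184, chromosome 10, 117688875 to 117710758, minus strand) its ubiquitin ligase, and Trp53inp1 (ENSMUSG00000028211, chromosome 4, 11156431 to 11174379, plus strand) a stress-induced nuclear protein that supports p53 activity. Cdkn1a (ENSMUSG00000023067, chromosome 17, 29090976 to 29100727, plus strand) encodes p21, the inhibitor of cyclin-dependent kinases through which p53 stops the cell cycle. Btg2 (ENSMUSG00000020423, chromosome 1, 134075170 to 134079120, minus strand) encodes an antiproliferative protein that recruits the deadenylase complex to mRNA, and Ccng1 (ENSMUSG00000020326, chromosome 11, 40748552 to 40755311, minus strand) encodes cyclin G1, a p53 target that acts back on MDM2. Casp8 (ENSMUSG00000026029, chromosome 1, 58795374 to 58847503, plus strand) encodes caspase-8, the initiator protease of death receptor signalling. All are protein-coding genes in the GENCODE annotation of GRCm38. Exons of Cdkn1a overlap an unconfirmed antisense gene, AC167363.2, which reached at most 0.296 FPKM in any library, and the body but no exon of Casp8 overlaps Gm37760, which reached at most 0.102 FPKM. The other 5 overlap no annotated gene. No use of strand is stated, so reads of Cdkn1a and its antisense partner cannot be told apart.

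Promoter sequence was taken from the RefSeq promoter table of GRCm38.p6, which matched 6 of the 7 genes. The table gives 250 bases before and 50 after each annotated start, and each window of 300 bases was searched for the 10-base p53 consensus decamer, which reads the same on both strands, so that 1 search covers both. The 6 genes have 7 windows, of which 4 held a match, 1 each in Trp53, Mdm2, Cdkn1a and Ccng1, against 8.36% of all 32851 windows. All 4 were lower in knockout 2-cell embryos, but so were Btg2, whose window held no match, and 40.3% of all tested genes. Any link between a match and the RNA level was not tested. The bases before the start of these 4 genes are shown, and capitals mark the match. They lie at chr11:69580109-69580358 on the plus strand for Trp53, at chr10:117710759-117711008 on the minus strand for Mdm2, at chr17:29090729-29090978 on the plus strand for Cdkn1a and at chr11:40755287-40755536 on the minus strand for Ccng1.
Trp53: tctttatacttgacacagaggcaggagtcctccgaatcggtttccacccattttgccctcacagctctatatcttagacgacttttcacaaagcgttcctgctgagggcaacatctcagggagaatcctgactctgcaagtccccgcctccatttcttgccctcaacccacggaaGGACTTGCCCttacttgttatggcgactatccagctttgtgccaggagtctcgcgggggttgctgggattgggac
Mdm2: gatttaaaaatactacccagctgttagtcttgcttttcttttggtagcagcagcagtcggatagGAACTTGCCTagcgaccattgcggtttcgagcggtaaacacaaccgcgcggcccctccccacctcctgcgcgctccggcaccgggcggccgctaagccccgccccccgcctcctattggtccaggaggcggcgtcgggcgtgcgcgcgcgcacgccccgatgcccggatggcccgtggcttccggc
Cdkn1a: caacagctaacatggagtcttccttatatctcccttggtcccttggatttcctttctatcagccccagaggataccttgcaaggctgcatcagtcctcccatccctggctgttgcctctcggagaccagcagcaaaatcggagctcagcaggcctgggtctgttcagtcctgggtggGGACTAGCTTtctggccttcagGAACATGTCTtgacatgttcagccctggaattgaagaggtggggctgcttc
Ccng1: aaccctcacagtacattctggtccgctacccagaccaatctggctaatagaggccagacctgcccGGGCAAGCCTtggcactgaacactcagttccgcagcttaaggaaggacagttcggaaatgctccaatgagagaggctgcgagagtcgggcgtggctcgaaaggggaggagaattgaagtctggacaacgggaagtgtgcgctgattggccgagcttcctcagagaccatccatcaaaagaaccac
The match begins 75 bases before the start in Trp53, 186 in Mdm2 and 185 in Ccng1. Cdkn1a has 2 matches, 73 and 51 bases before its start with 12 bases between them, and 2 matches with at most 13 bases between them occurred in 24 windows, 0.0731% of all. A second annotated window of Cdkn1a and the windows of Btg2 and Casp8 held no match. A match describes these letters and does not show that p53 binds there.

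The deposited values are FPKM, in which fragment counts are divided by transcript length and by library size, so levels can be compared between genes per length. Implied depth was 7.65 to 12.3 M fragments per library, and 1 fragment was worth about 0.0126 to 0.0476 FPKM in these 7 genes. Nlrp14 itself averaged 28.4 FPKM in knockout and 1937 FPKM in wild-type GV oocytes, and 26.4 FPKM in knockout and 106 FPKM in wild-type 2-cell embryos, with no overlap between genotypes at any stage. All 9 oocyte markers were at or above 1 FPKM in every group, and all 8 markers of 2-cell embryos in both 2-cell groups. At the 2-cell stage the summed oocyte markers ran from 1075 to 1320 FPKM in knockout and from 384 to 605 FPKM in wild type, and the summed 2-cell markers from 1365 to 1994 FPKM in knockout and from 866 to 1085 FPKM in wild type. Of 12 cumulus and granulosa markers, summed at 6.54 to 10.4 FPKM in knockout and 18.2 to 33.6 FPKM in wild type, 2 in knockout and 1 in wild type averaged 1 FPKM or more. In all 3 libraries of the group, 6 of the 12 were listed at 0 in knockout and 5 in wild type, with Amh, Fshr, Inhba and Ptx3 among both. The others were detected in at least 1 library of the group. Of 4 blood markers, summed at 11.4 to 19.7 FPKM in knockout and 42.8 to 74.8 FPKM in wild type, Hba-a1 alone reached 1 FPKM while Hbb-bs was listed at 0, and the 6 sperm markers summed to 3.00 to 4.49 FPKM in knockout and 2.31 to 2.81 FPKM in wild type. The part of these marker differences in the results was not tested.

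In knockout 2-cell embryos Trp53, Mdm2, Cdkn1a, Ccng1 and Btg2 were lower and Casp8 was higher than in wild type, whereas Trp53inp1 did not pass the test. Of all 13828 genes tested there, 40.3% were lower and 14.0% higher. The calls of Mdm2 and Btg2 were lost when the libraries were scaled by their median ratio. The p21 gene Cdkn1a averaged 1.83 ± 0.34 FPKM in knockout and 9.34 ± 2.36 FPKM in wild-type 2-cell embryos (SD, n = 3 each), 19.5% of the wild-type level, so this p53 target was below and not above its wild-type level. Before the 2-cell stage only Btg2 passed the test, lower in knockout MII eggs, where 1.96% of all tested genes were lower. That call too was lost after median-of-ratios scaling. Since every library is scaled to its own total, less of a transcript per embryo cannot be told apart from more of all other RNA, nor fewer cells holding a transcript from less of it per cell.

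**Figure D1:**
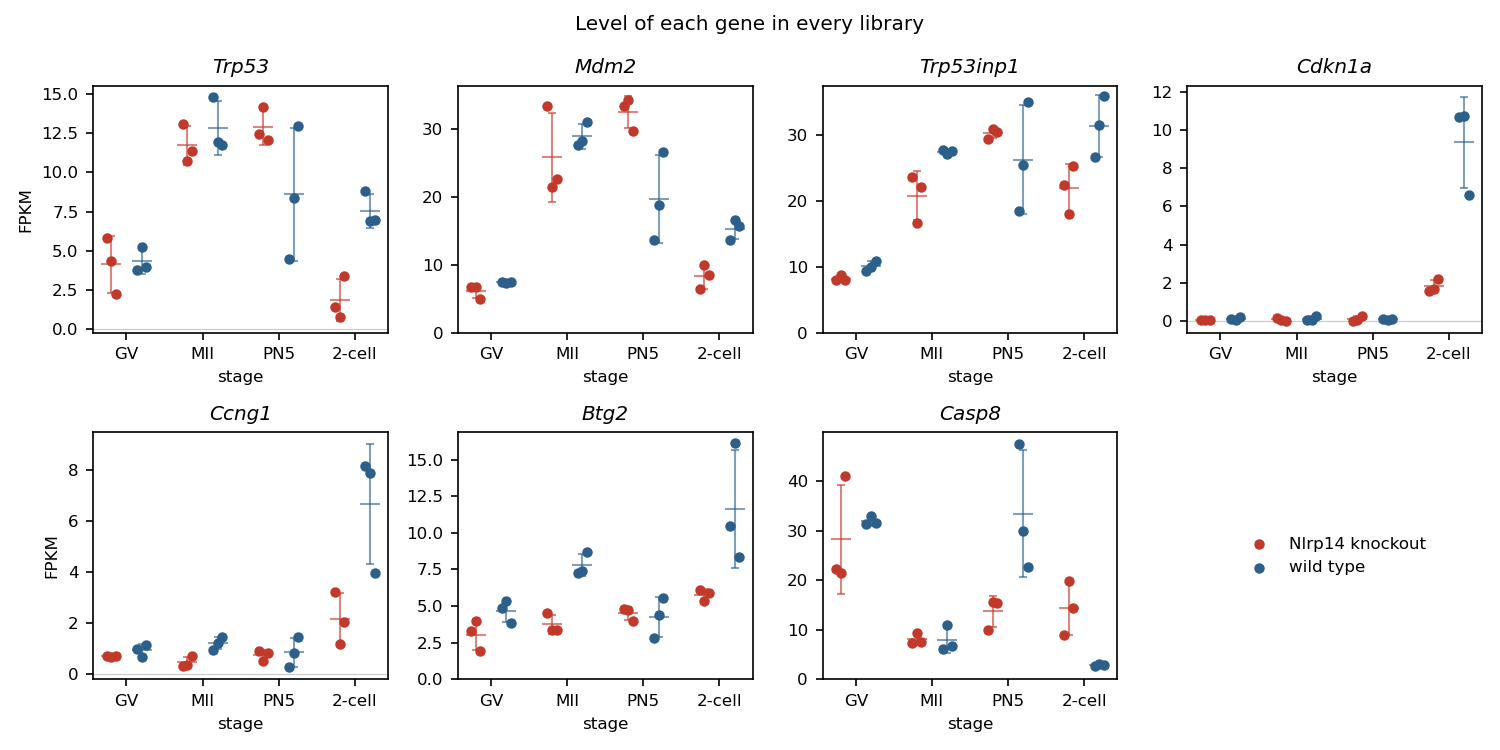
FPKM (vertical axes, linear) of the 7 genes in each library at the 4 stages, with Nlrp14 knockout in red on the left and wild type in blue on the right of each stage. Points are libraries, bars are the mean ± SD of 3. Cdkn1a reaches at most 0.279 FPKM before the 2-cell stage in both genotypes, and Casp8 lies at 9.01 to 19.8 FPKM in knockout and 2.58 to 3.02 FPKM in wild-type 2-cell embryos.

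The normal course of the 7 genes was followed first, in wild type. Differences are log2 differences of FPKM + 1, fitted with limma across all tested genes, and a gene was called at a Benjamini-Hochberg adjusted p under 0.05. Trp53 averaged 4.31 ± 0.82 FPKM in GV oocytes, 12.9 ± 1.7 in MII eggs, 8.61 ± 4.26 in zygotes and 7.54 ± 1.08 in 2-cell embryos (SD, n = 3 each). Mdm2 averaged 7.42 ± 0.06, 29.0 ± 1.8, 19.7 ± 6.6 and 15.3 ± 1.5 FPKM at the same stages, and Trp53inp1 10.1 ± 0.8, 27.5 ± 0.3, 26.3 ± 8.3 and 31.4 ± 4.6 FPKM. These 3 genes had their clearest step between GV and MII, and at PN5 and at the 2-cell stage the wild-type libraries of each overlapped.

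From GV to MII, Mdm2 (log2 difference 1.83), Trp53 (1.39), Trp53inp1 (1.36) and Btg2 (0.64) rose and Casp8 (-1.92) fell, with adjusted p from 4.22e-07 to 0.00197, and Ccng1 (0.20, adjusted p = 0.19) was not called. That makes 5 of 6 tested members, where 84.0% of all 11610 tested genes were called, 31.1% higher and 52.8% lower. The median of all genes was -0.50 at this step and -0.22 after median-of-ratios scaling, in which each library is divided by its median ratio to the geometric mean of the libraries compared, and the 4 rises stand 1.13 to 2.33 above the deposited median. Under that scaling Ccng1 was called as well (0.39, adjusted p = 0.019). A rise here and at the later steps is a rise in the share of a library. Whether RNA per oocyte or embryo rose was not tested.

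Cdkn1a, Ccng1 and Btg2 behaved otherwise. Cdkn1a stood at 0.0656 to 0.211 FPKM in wild-type GV oocytes, 0.0615 to 0.259 FPKM in MII eggs and 0.0329 to 0.136 FPKM in zygotes. One fragment of it was worth about 0.0229 to 0.0368 FPKM, so these levels rest on few fragments. In wild-type 2-cell embryos it stood at 6.61, 10.7 and 10.7 FPKM. Ccng1 stood at 0.270 to 1.43 FPKM in the 9 wild-type libraries before the 2-cell stage and at 3.94, 7.90 and 8.18 FPKM at that stage. From PN5 to the 2-cell stage Cdkn1a (log2 difference 3.23, SE 0.26, adjusted p = 1.53e-05), Ccng1 (2.06, SE 0.35, adjusted p = 0.000906) and Btg2 (1.25, SE 0.32, adjusted p = 0.0088) rose. Of all 13398 tested genes, 62.8% were called, 48.0% higher and 14.8% lower, at this step, with a median of 0.70, and after median-of-ratios scaling with a median of 0.29 and 36.6% of calls lower, against 23.6% as deposited. Leaving out any 1 wild-type 2-cell library left Cdkn1a untested, since fewer than 3 libraries then reached 1 FPKM. Without replicate 2 Btg2 was not called either (1.01, adjusted p = 0.055), which left 2 members called, where 40.1% of all tested genes were. Mdm2 was called lower (-0.84, adjusted p = 0.015) after median-of-ratios scaling only.

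Casp8 was called at all 3 steps in wild type. It averaged 32.0 ± 0.9 FPKM in GV oocytes, 7.95 ± 2.67 in MII eggs, 33.4 ± 12.8 in zygotes and 2.83 ± 0.22 in 2-cell embryos, so it fell, rose and fell again. The rise to PN5 (log2 difference 1.92, SE 0.33, adjusted p = 0.0092) was the only call among 6 tested members at that step, where 14.2% of 9375 genes were called and 9.80% were called higher. It was lost without wild-type PN5 replicate 2 (1.96, adjusted p = 0.056). Without wild-type PN5 replicate 3, 4 members were called there, with Trp53 (-0.94), Mdm2 (-0.81) and Btg2 (-0.95) lower than at MII, while 2632 of all 8781 genes tested then were called, 15.6% lower and 14.4% higher. After median-of-ratios scaling Btg2 (-0.80, adjusted p = 0.030) joined Casp8 and 44.0% of all calls were lower, against 31.2% as deposited. The fall from PN5 to the 2-cell stage was -3.11 (SE 0.30, adjusted p = 4.46e-05).

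In GV oocytes the genotypes gave no call among these genes. None of 5 tested members was called, and 0.0430% of 11635 tested genes were, 5 genes in all, while 1378 genes had an unadjusted p under 0.05. Without knockout replicate 3, 1026 genes were called, 8.97% of those tested. That library had 10379 genes at 1 FPKM or more, against 11264 to 11662 in the other GV libraries. Its summed FPKM was 456463, against 372963 to 384375 in the others. Why it differed was not tested. Mdm2 was at 6.68, 6.67 and 5.01 FPKM in knockout and 7.44, 7.35 and 7.46 FPKM in wild type (log2 difference -0.25, adjusted p = 0.62). Trp53inp1 was at 7.91, 8.68 and 7.93 FPKM in knockout and 9.40, 9.91 and 10.9 FPKM in wild type (-0.27, adjusted p = 0.56). In these 2 genes all knockout libraries lay below all wild-type libraries, and 23.0% of tested genes showed no overlap in either direction. Casp8 was at 22.4, 21.4 and 41.0 FPKM in knockout and 31.3, 33.1 and 31.6 FPKM in wild type, so 1 knockout library was above and the other 2 below wild type, and without knockout replicate 3 it was called lower (-0.53, adjusted p = 0.023), as were 5.43% of all genes. Trp53 ran from 2.21 to 5.79 FPKM in knockout and from 3.74 to 5.26 FPKM in wild type, and Btg2 from 1.90 to 3.94 FPKM in knockout and from 3.86 to 5.31 FPKM in wild type, both with overlap.

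MII eggs differed in Btg2. It stood at 4.50, 3.39 and 3.34 FPKM in knockout and at 7.29, 7.42 and 8.66 FPKM in wild-type eggs. All knockout values were below all wild-type values, and knockout eggs held 48.1% of the wild-type mean (log2 difference -0.90, SE 0.17, adjusted p = 0.042). It was 1 of 5 tested members called, where 2.28% of 8739 tested genes were called, 1.96% lower, at a median of -0.18. The call is at the edge of the threshold. It was lost at a pseudocount of 0.1 (adjusted p = 0.060), with no filter (0.14), after median-of-ratios scaling (-0.67, 0.073), which put the median of all genes at 0.03 and 64.6% of calls lower against 85.9%, and in the fit with replicate numbers as a block (0.077). It was also lost without wild-type replicate 1 (0.20), 2 (0.19) or 3 (0.23) and without knockout replicate 2 (0.088) or 3 (0.16).

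Trp53inp1 in MII eggs was at 23.7, 16.6 and 22.1 FPKM in knockout and at 27.8, 27.1 and 27.5 FPKM in wild type. The groups did not overlap, nor did those of 34.5% of tested genes in either direction, and the gene was not called (-0.40, adjusted p = 0.16), except without knockout replicate 1 (-0.50, adjusted p = 0.037), where 27.3% of all genes were called lower. Ccng1 was too low to be tested, at 0.295, 0.331 and 0.679 FPKM in knockout and 0.941, 1.21 and 1.43 FPKM in wild-type eggs, with no overlap. Trp53 (10.7 to 13.1 FPKM in knockout, 11.8 to 14.8 FPKM in wild type), Mdm2 (21.4 to 33.4 FPKM in knockout, 27.7 to 31.0 FPKM in wild type) and Casp8 (7.28 to 9.32 FPKM in knockout, 6.12 to 11.0 FPKM in wild type) overlapped between genotypes.

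PN5 zygotes gave no call among 5 tested members, where 6.10% of 9483 tested genes were called. As deposited 90.7% of those calls were lower, and 73.3% after median-of-ratios scaling. Casp8 stood at 9.96, 15.7 and 15.4 FPKM in knockout zygotes and at 47.6, 29.9 and 22.7 FPKM in wild-type zygotes, 40.9% of the wild-type mean, with no overlap (log2 difference -1.19, SE 0.31, adjusted p = 0.061). Mdm2 stood at 33.4, 34.3 and 29.8 FPKM in knockout and at 13.6, 18.9 and 26.7 FPKM in wild type (0.74, SE 0.26, adjusted p = 0.11), again with no overlap. Groups without overlap, in either direction, occurred in 40.1% of tested genes. Trp53 was at 12.5, 14.2 and 12.1 FPKM in knockout and at 4.48, 8.35 and 12.99 FPKM in wild type (0.63, adjusted p = 0.23), with overlap through 1 wild-type library.

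The spread at this stage lay in wild type. For Trp53, Mdm2, Trp53inp1, Btg2 and Ccng1 wild-type replicate 1 was lowest and replicate 3 highest, and for Casp8 the order was the opposite. Slopes on log2 gene length were fitted to each gene's log2 level minus its mean over all PN5 libraries, so they compare libraries with each other. These slopes were -0.17 in wild-type replicate 1, -0.07 in replicate 2, 0.02 in replicate 3 and 0.06 to 0.09 in the 3 knockout libraries. Without wild-type replicate 3, Mdm2 (0.97, adjusted p = 0.019) and Trp53 (0.96, adjusted p = 0.038) were called higher and Casp8 (-1.43, adjusted p = 0.015) lower in knockout zygotes. All genes called then came to 32.9% of those tested, with 16.9% of those tested called lower, so the gain was not limited to these genes. Removing the length trend from every library changed no member's call at PN5.

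At the 2-cell stage 6 of 7 tested members were called, 5 lower and 1 higher. Of all tested genes 54.3% were called, 40.3% lower and 14.0% higher, so a call on its own is common at this stage. The median over all genes was -0.44 and over the 7 members -0.86. Median-of-ratios scaling moved the median of all genes to -0.05 and the share of calls that were lower to 53.5%, against 74.2% as deposited. Under it 4 of 7 members were called, where 51.7% of all tested genes were. All knockout libraries lay below all wild-type libraries in 6 members and above them in Casp8, and 62.0% of tested genes had no overlap in either direction.

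Among the regulators, Trp53 stood at 1.36, 0.758 and 3.36 FPKM in knockout and at 8.78, 6.90 and 6.93 FPKM in wild-type 2-cell embryos. Knockout embryos had 24.2% of the wild-type mean (log2 difference -1.70, SE 0.34, adjusted p = 0.00355), and -1.29 (adjusted p = 0.014) after median-of-ratios scaling. Mdm2 stood at 6.39, 9.93 and 8.56 FPKM in knockout and at 13.7, 16.6 and 15.7 FPKM in wild type, 54.1% of the wild-type mean (-0.83, SE 0.23, adjusted p = 0.014). The Mdm2 call was lost after median-of-ratios scaling (-0.32, adjusted p = 0.28) and without knockout replicate 1 (-0.67, adjusted p = 0.051). Trp53inp1, at 22.4, 18.0 and 25.3 FPKM in knockout and 26.7, 31.5 and 36.0 FPKM in wild type, was not called (-0.50, SE 0.21, adjusted p = 0.078), and its difference was 0.03 after median-of-ratios scaling. Trp53 and Mdm2 were thus lower together, Trp53 by more than the median of all genes under both scalings.

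Among the targets, Cdkn1a stood at 1.58, 1.69 and 2.21 FPKM in knockout and at 10.7, 10.7 and 6.61 FPKM in wild type (log2 difference -1.85, SE 0.25, adjusted p = 0.000745). Every knockout 2-cell library was above all 18 libraries of the earlier stages and below every wild-type 2-cell library. Ccng1 stood at 3.20, 1.16 and 2.03 FPKM in knockout and at 8.18, 7.90 and 3.94 FPKM in wild type, 31.9% of the wild-type mean (-1.29, SE 0.34, adjusted p = 0.012). Btg2 stood at 6.08, 5.33 and 5.86 FPKM in knockout and at 10.5, 16.2 and 8.34 FPKM in wild type, 49.4% of the wild-type mean (-0.86, SE 0.26, adjusted p = 0.023). The Cdkn1a call held under every setting tried, as did that of Trp53, with Cdkn1a at -1.42 (adjusted p = 0.00183) after median-of-ratios scaling. Under that scaling Ccng1 was at -0.87 (adjusted p = 0.049) and Btg2 lost its call (-0.37, adjusted p = 0.23), as it did with no filter (adjusted p = 0.060). Without wild-type replicate 1, Btg2 (-0.91, adjusted p = 0.050) and Ccng1 (-1.14, adjusted p = 0.050) lost their calls, as they did without wild-type replicate 2 (Btg2 -0.62, adjusted p = 0.071, and Ccng1 -1.16, adjusted p = 0.051). Btg2 also lost its call without knockout replicate 2 (-0.81, adjusted p = 0.062) or 3 (-0.87, adjusted p = 0.056).

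Casp8 went the other way. It stood at 9.01, 19.8 and 14.3 FPKM in knockout and at 2.58, 3.02 and 2.89 FPKM in wild-type 2-cell embryos, 5.07 times the wild-type mean (log2 difference 1.94, SE 0.29, adjusted p = 0.0010). The call held under every setting tried, from 1.69 without knockout replicate 2 to 2.40 after median-of-ratios scaling. In knockout the 2-cell libraries (9.01 to 19.8 FPKM) overlapped those of zygotes (9.96 to 15.7 FPKM), whereas in wild type 2-cell libraries were below all zygote libraries (22.7 to 47.6 FPKM). The 2-cell level in knockout embryos was thus close to that of knockout zygotes and below that of every wild-type zygote library.

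**Figure D2:**
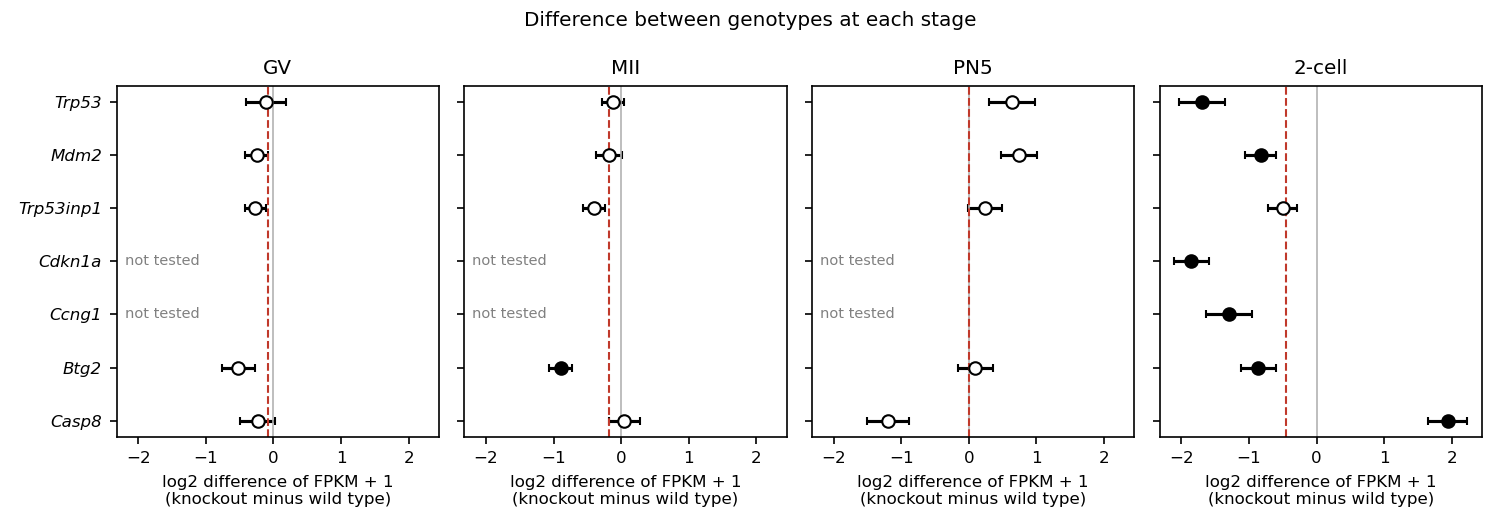
Log2 difference of FPKM + 1, knockout minus wild type (horizontal axes), of the 7 genes at each stage, with bars for the standard error of the limma fit over 3 libraries per group. Filled circles passed an adjusted p of 0.05, the dashed red line is the median of all tested genes. Filled circles appear for Btg2 at MII and for 6 genes at the 2-cell stage, where Casp8 (1.94) lies opposite to the other 5.

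The change from PN5 to the 2-cell stage was compared between genotypes directly, as the change in knockout minus the change in wild type. It differed for 6 of 7 tested members, where 45.8% of 14986 tested genes were called, 31.9% lower and 13.8% higher. The difference of changes was -2.33 for Trp53 (SE 0.50, adjusted p = 0.00293), -1.57 for Mdm2 (SE 0.34, adjusted p = 0.00289), -1.89 for Cdkn1a (SE 0.29, adjusted p = 0.000461) and 3.13 for Casp8 (SE 0.44, adjusted p = 0.000283). For Trp53 the means behind this were 12.9 FPKM in knockout and 8.61 FPKM in wild-type zygotes, and 1.82 FPKM in knockout and 7.54 FPKM in wild-type 2-cell embryos. Btg2 (-0.95, adjusted p = 0.046) and Ccng1 (-1.24, adjusted p = 0.040) were called narrowly. They lost the call at a pseudocount of 0.1 (0.062 and 0.11), with no filter (0.090 and 0.091), after median-of-ratios scaling (0.063 and 0.061) and with replicate numbers as a block (0.063 and 0.060). Leaving out 1 library ended the Btg2 call for 10 of 12 libraries and the Ccng1 call for 8 of 12, with adjusted p up to 0.12 and 0.098. The Btg2 call held without wild-type PN5 replicate 3 or wild-type 2-cell replicate 3, and the Ccng1 call without either of these, knockout PN5 replicate 2 or knockout 2-cell replicate 1. Trp53inp1 was not called (-0.74, adjusted p = 0.081), except without wild-type PN5 replicate 3 (-0.96, adjusted p = 0.017), where 49.6% of all genes were called. No member was called in the same comparison from GV to MII (0.120% of 12478 genes called) or from MII to PN5 (7.45% of 10190 genes called). From MII to PN5, 5 members were called without wild-type PN5 replicate 3 (Trp53 1.07, Mdm2 1.16, Btg2 1.16, Trp53inp1 0.86 and Casp8 -1.47), where 41.4% of all genes were called. Without knockout MII replicate 1, 2 members were called (Mdm2 1.12 and Btg2 1.10), where 26.5% of all genes were.

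Ordered by mean level over the 8 groups, each member had its own profile. Trp53 was highest in knockout zygotes (12.9 FPKM) and lowest in knockout 2-cell embryos (1.82 FPKM), with overlap between neighbours in this order except between wild-type 2-cell embryos and wild-type GV oocytes. Mdm2 was likewise highest in knockout zygotes (32.5 FPKM) but lowest in knockout GV oocytes (6.12 FPKM), and knockout 2-cell embryos stood between wild-type 2-cell embryos, without overlap, and wild-type GV oocytes, with overlap. Btg2 led in wild-type 2-cell embryos (11.7 FPKM), overlapping wild-type MII eggs (7.79 FPKM), and Trp53inp1 in wild-type 2-cell embryos (31.4 FPKM), overlapping knockout zygotes (30.2 FPKM). Across the 24 libraries Pearson's r of log2(FPKM + 1) was 0.85 between Trp53 and Mdm2, 0.93 between Cdkn1a and Ccng1 and -0.65 between Cdkn1a and Casp8, as a description, since libraries share stage and genotype.

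The genes most alike in profile were found among 6321 protein-coding genes by Pearson's r over the same 24 libraries. For Cdkn1a they were Zbtb8a (0.996), Ccnjl (0.994) and Npl (0.993), for Mdm2 Yipf4 (0.982), Capza2 (0.973) and Ifrd1 (0.964), and for Trp53inp1 Agps (0.966), Plag1 (0.961) and Ube3c (0.959). For Trp53 they were Hsp90ab1 (0.951), Hells (0.949) and Hspa14 (0.948), for Ccng1 Pdp2 (0.951) and Bag5 (0.950), for Casp8 Spag7 (0.934), Lyplal1 (0.924) and Gpr1 (0.911), and for Btg2 Rps6kb1 (0.922), Crebbp (0.916) and Amer1 (0.904). Among these only Crebbp, a coactivator of p53, belongs to the lists of pathway genes described next.

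The wider pathway was read from lists of related genes. Of 21 regulators of p53, 16, 15 and 15 were tested at GV, MII and PN5 and none was called, and of 38 other p53 target genes 16, 15 and 16 were tested and none was called. Of all tested genes 0.0430%, 2.28% and 6.10% were called at these stages. Leaving out 1 library, up to 1 regulator at GV and 4 at MII were called lower, and up to 1 at MII and 3 at PN5 higher. Of the other targets, up to 3 were higher at GV, 3 at MII and 2 at PN5, and up to 3 lower at MII and 2 at PN5. In those fits up to 8.97%, 36.2% and 32.9% of all genes were called at GV, MII and PN5. At the 2-cell stage 19 regulators were tested, of which 1 was higher and 9 were lower (median -0.68), and 26 other targets, of which 3 were higher and 16 lower (median -0.75), beside the median of -0.44 over all genes. The shares of all genes called there were 14.0% higher and 40.3% lower. After median-of-ratios scaling 5 regulators were higher and 5 lower, and 7 other targets were higher and 10 lower, where 3325 of all 13828 genes were higher and 3825 lower (27.7%). Without wild-type replicate 1, 5 regulators and 10 other targets were lower, as were 28.0% of all genes, and without wild-type replicate 2, 7 other targets were, as were 29.6% of all genes.

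The damage kinases went in both directions. Chek2, which phosphorylates p53 after DNA breaks, averaged 3.07 ± 0.87 FPKM in knockout and 16.6 ± 1.5 FPKM in wild-type 2-cell embryos (log2 difference -2.13, adjusted p = 0.000357), and Atm, the kinase above it, 3.07 ± 0.39 FPKM in knockout and 12.5 ± 2.7 FPKM in wild type (-1.71, adjusted p = 0.000756). Chek1, the kinase of the replication checkpoint, averaged 67.0 ± 10.5 FPKM in knockout and 39.8 ± 11.8 FPKM in wild type (0.77, adjusted p = 0.029). The Chek1 call was lost with no filter (0.076), without wild-type replicate 1 (0.081) or 2 (0.099) and without knockout replicate 1 (0.086) or 3 (0.074). Of the enzymes that modify the p53 protein, Sirt1, a deacetylase, averaged 3.66 ± 0.39 FPKM in knockout and 14.0 ± 2.1 FPKM in wild type (-1.67, adjusted p = 0.000612), and Prmt5, an arginine methyltransferase, 2.22 ± 0.97 FPKM in knockout and 14.0 ± 5.1 FPKM in wild type (-2.21, adjusted p = 0.00116).

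Among the 16 lower p53 targets, 4 are given here by smallest p. Tigar, a phosphatase that slows glycolysis, averaged 15.3 ± 4.1 FPKM in knockout and 54.2 ± 3.1 FPKM in wild type (log2 difference -1.79, adjusted p = 0.000568). The sestrins, stress proteins that restrain mTORC1, were lower too, Sesn1 at 1.31 ± 0.50 FPKM in knockout and 9.46 ± 2.49 FPKM in wild type (-2.17, adjusted p = 0.00057) and Sesn2 at 1.63 ± 0.68 FPKM in knockout and 11.5 ± 6.0 FPKM in wild type (-2.17, adjusted p = 0.00237). Ei24, an endoplasmic reticulum protein of autophagy, averaged 3.05 ± 0.38 FPKM in knockout and 11.4 ± 1.8 FPKM in wild type (-1.61, adjusted p = 0.000737). The remaining lower targets are given by count.

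The 3 higher genes of the target list were Trp53inp2, a relative of Trp53inp1 that acts in autophagy, Rps27l, a ribosomal protein paralogue, and Ddb2, which recognises ultraviolet damage in DNA. They were listed by name, and whether p53 controls them in mouse embryos was not tested. Trp53inp2 averaged 20.6 ± 3.8 FPKM in knockout and 9.77 ± 1.09 FPKM in wild type (log2 difference 0.99, adjusted p = 0.0055). Rps27l averaged 597 ± 97 FPKM in knockout and 351 ± 85 FPKM in wild type (0.78, adjusted p = 0.017), a value that could share reads with near-identical copies, and lost its call without wild-type replicate 1 (0.059) or 2 (0.056) and without knockout replicate 2 (0.053). Ddb2 averaged 12.9 ± 2.3 FPKM in knockout and 6.60 ± 2.31 FPKM in wild type (0.90, adjusted p = 0.022), and lost its call with no filter (0.060), without wild-type replicate 2 (0.076) or 3 (0.051) and without knockout replicate 2 (0.074). Higher Trp53inp2 stood beside a Trp53inp1 that was not called.

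**Figure D3:**
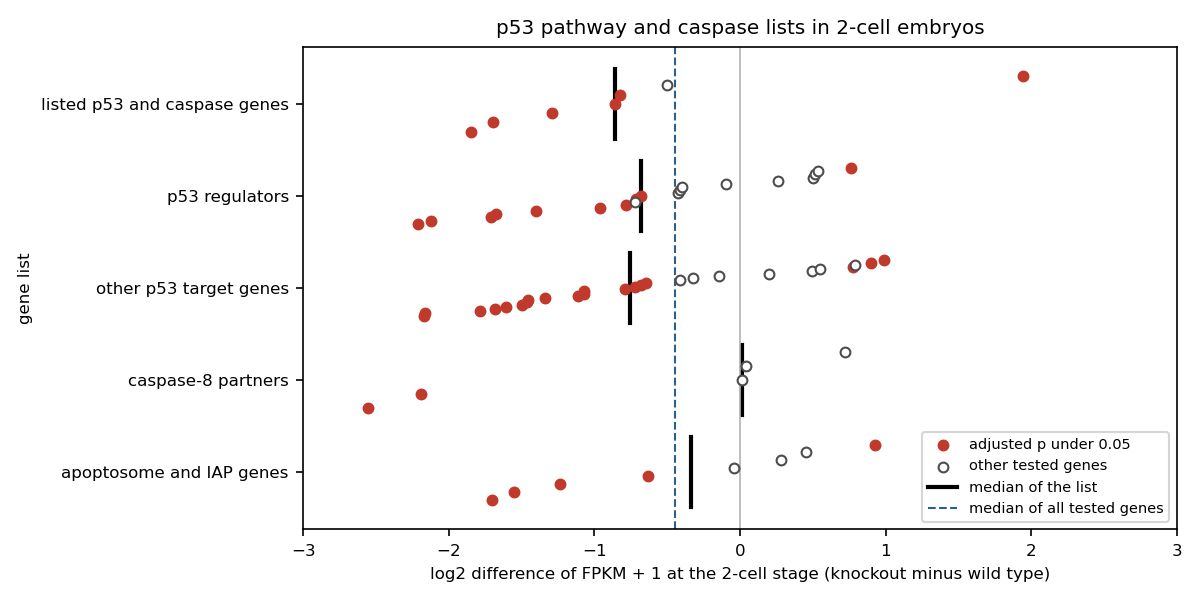
Log2 difference of FPKM + 1 at the 2-cell stage, knockout minus wild type (horizontal axis), of every tested gene of the 7 described genes and of 4 lists of related genes (rows). Filled red circles passed an adjusted p of 0.05, short black lines are list medians and the dashed line is the median of all tested genes, -0.44. Casp8 (1.94) lies furthest to the right of all genes plotted.

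Of the effector caspases, Casp6 stood at 2.66, 0.949 and 1.22 FPKM in knockout and at 8.74, 4.88 and 5.82 FPKM in wild-type 2-cell embryos (log2 difference -1.54, SE 0.31, adjusted p = 0.00385). The groups did not overlap, nor did those of 62.0% of tested genes in either direction, and 40.3% of all tested genes were lower. Casp6 was thus lower, as many genes were, where Casp8 was higher.

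Of 10 caspase-8 partners 5 were tested at the 2-cell stage and 2 were lower, a share like the 40.3% of all genes that were lower. Bid, the BCL2-family protein that caspase-8 cuts to reach mitochondria, stood at 1.38, 1.15 and 0.958 FPKM in knockout and at 14.0, 12.3 and 9.26 FPKM in wild type (log2 difference -2.56, SE 0.24, adjusted p = 0.000255). Traf2, an adaptor of tumour necrosis factor receptors, stood at 0.381, 0 and 0.443 FPKM in knockout and at 7.67, 6.27 and 2.02 FPKM in wild type (-2.19, adjusted p = 0.00226). Leaving out any 1 wild-type replicate left Traf2 untested, with fewer than 3 libraries at 1 FPKM, and only 1 partner lower, and after median-of-ratios scaling 1 was called higher, as were 3325 of all 13828 genes. The adaptor Fadd (0.01, SE 0.21) and the kinase Ripk1 (0.04, SE 0.29) had differences near 0, and Cflar, the inhibitory relative of caspase-8, one of 0.72 (adjusted p = 0.10).

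Of 10 genes of the apoptosome and of the inhibitor of apoptosis family, 8 were tested at the 2-cell stage, with 1 higher and 4 lower, beside 14.0% of all genes higher and 40.3% lower. Birc3 averaged 33.3 ± 5.2 FPKM in knockout and 16.9 ± 1.5 FPKM in wild type (log2 difference 0.93, adjusted p = 0.0054), whereas its close relative Birc2, which like it ubiquitinates RIPK1, averaged 1.19 ± 0.20 FPKM in knockout and 5.47 ± 1.09 FPKM in wild type (-1.55, adjusted p = 0.000947). Xiap, the direct caspase inhibitor, averaged 1.50 ± 0.43 FPKM in knockout and 4.95 ± 1.46 FPKM in wild type (-1.24, adjusted p = 0.0047), and Diablo, the mitochondrial protein that relieves that inhibition, 5.58 ± 1.74 FPKM in knockout and 20.2 ± 4.8 FPKM in wild type (-1.70, adjusted p = 0.00152). Apaf1, the core of the apoptosome, averaged 1.24 ± 0.11 FPKM in knockout and 2.49 ± 0.35 FPKM in wild type (-0.64, adjusted p = 0.031), and lost its call after median-of-ratios scaling (-0.28, 0.27), with no filter (0.059), with replicate numbers as a block (0.065) and without any library but wild-type replicate 3 (0.060 to 0.097).

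Before the 2-cell stage 1 gene of these lists was called, Birc5, which encodes survivin, a protein of the chromosomal passenger complex, in PN5 zygotes. It stood at 59.0, 78.2 and 47.5 FPKM in knockout and at 130.0, 129.1 and 111.3 FPKM in wild-type zygotes (log2 difference -1.02, SE 0.23, adjusted p = 0.045). The groups did not overlap, nor did those of 40.1% of tested genes in either direction. Birc5 was 1 of 8 tested genes of its list, where 6.10% of all 9483 tested genes were called, 5.53% lower. The call was lost at a pseudocount of 0.1 (0.055), with no filter (0.16), after median-of-ratios scaling (0.065), with replicate numbers as a block (0.071), without wild-type replicate 2 (0.19) and without knockout replicate 1 (0.17), 2 (0.096) or 3 (0.18).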

How the data were processed

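Each library was made from total RNA of 5 oocytes or embryos per the labels, which name the SMART-Seq HT kit. The authors deposited FPKM values of 55487 Ensembl genes per library, made with StringTie on GRCm38 per the submitters' processing notes. The aligner, versions and annotation release are not given in the sources used here. FPKM times exon length came in whole multiples of 1 step for 98.8 to 99.2% of low values of single-transcript genes (multiples up to 30, tolerance 0.02), which gave the implied depths. Genes with several transcripts give no whole fragments, so no count model was used.

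Comparisons were fitted with limma 3.58.1 (R 4.3.3, data.table version 1.17.8) on log2(FPKM + 1) with the groups compared, empirical Bayes with trend and robust settings, on genes that reached 1 FPKM in 3 or more libraries of the comparison, and p-values were adjusted over all tested genes. Adding 1 understates the change of low genes. The fit was tested on simulated data. Members, lists and tests were chosen with earlier results of these data known. All 7 members are named. Of a list, all called genes are named where 3 or fewer were called at a stage, otherwise the 4 of smallest p in each direction, and Fadd, Ripk1 and Cflar, chosen after their values were seen. The rule gave 3 genes most alike in profile per member, among genes with a group mean of at least 5 FPKM. Some genes these rules would name are not reported here. Median-of-ratios scaling divides each library by its median ratio to the geometric mean over the libraries compared. Other settings are given in the closing section. No 2 libraries were identical. P-values measure the spread between libraries labelled as biological replicates. The code ran on Python 3.11.15, pandas 2.3.3, numpy 2.4.6 and matplotlib 3.10.9.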

Additional observations from a re-analysis of the deposited data

Results flagged for a closer look

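The change from PN5 to the 2-cell stage differed between genotypes in 6 genes by a test of the difference itself, the interaction term of the limma fit over 12 libraries, which called 45.8% of all 14986 tested genes. The change in knockout minus the change in wild type was -2.33 for Trp53, -1.57 for Mdm2, -1.89 for Cdkn1a, -0.95 for Btg2, -1.24 for Ccng1 and 3.13 for Casp8, as log2 differences of FPKM + 1. All knockout 2-cell libraries were below all wild-type 2-cell libraries in the first 5 genes and above them in Casp8. Such a lack of overlap, in either direction, occurred in 62.0% of all genes tested at that stage. With median-of-ratios scaling the differences of changes were -2.11, -1.32, -1.63, -0.72, -1.04 and 3.32 in the same order of genes, and those of Btg2 and Ccng1 were no longer called (adjusted p = 0.063 and 0.061). Those 2 also lost the call at a pseudocount of 0.1, with no filter on low values and with the replicate block.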

How the results depend on the processing

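The settings tried were a pseudocount of 0.1, no filter on low values, median-of-ratios scaling, removal of the length trend, the replicate number as a block, and leaving out each library in turn; the cause of a change was not tested. The 7 genes at the 2-cell stage stayed in the deposited direction in all of them except Trp53inp1 after median-of-ratios scaling (0.028). The count of all genes called was 5 at GV, 199 at MII, 578 at PN5 and 7513 in 2-cell embryos. At GV it was 15 with the length trend removed, 2 with no filter and 2 with the replicate block. At MII it was 69 at a pseudocount of 0.1, 8 with no filter, 65 after median-of-ratios scaling and 132 with the replicate block, and no member was called (0) in these 4. At PN5 it was 110, 3, 15 and 1 in the same 4. The wild-type change from MII to PN5 had 1335 calls and 597 with no filter. There 1 member was called, and 2 after median-of-ratios scaling, where 15.5% of all genes were called, against 14.2% as deposited. The interaction from GV to MII had 15 calls, 46 with no filter and 2 with the replicate block, and that from MII to PN5 had 759 calls, 88 at a pseudocount of 0.1, 52 with the length trend removed, 13 with no filter and 2 with the replicate block. Values that turned sign, none of them called, were for KO against WT at MII Trp53 (0.13) and Mdm2 (0.077) after median-of-ratios scaling, for the wild-type changes Trp53inp1 from MII to PN5 (0.073) and Trp53 from PN5 to 2-cell (0.089) with the length trend removed and Trp53inp1 from PN5 to 2-cell (-0.27) after median-of-ratios scaling, and for the interaction from GV to MII Trp53 at a pseudocount of 0.1 (0.027), after median-of-ratios scaling (0.20) and with the length trend removed (0.015) and Trp53inp1 after median-of-ratios scaling (0.055).

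Leaving out 1 library, genes called ran from 1 to 1026 at GV, 3 to 3083 at MII, 1 to 2967 at PN5 and 4855 to 6606 at the 2-cell stage, from 360 to 2632 for the wild-type change from MII to PN5 and 3656 to 8459 from PN5 to 2-cell, and from 1 to 121 and 0 to 4130 for the interactions from GV to MII and from MII to PN5. Members called ran from 0 to 1 at GV, 0 to 2 at MII, 0 to 3 at PN5 and 4 to 6 at the 2-cell stage, from 0 to 4 and 2 to 4 for the wild-type changes from MII to PN5 and from PN5 to 2-cell, and from 0 to 5 for the interaction from MII to PN5. Values that crossed 0 were Trp53 at GV (-0.35 to 0.19), Casp8 at MII (-0.10 to 0.28), Btg2 at PN5 (-0.12 to 0.27), Trp53inp1 from MII to PN5 (-0.33 to 0.12) and Trp53 from PN5 to 2-cell (-0.43 to 0.25) in wild type, and in the interaction from GV to MII Trp53 (-0.31 to 0.23), Mdm2 (-0.12 to 0.18) and Trp53inp1 (-0.23 to 0.016).

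The correlation of deviations between libraries of 1 replicate number ran from -0.21 to 0.21 between knockout and wild type at a stage, and from -0.36 to 0.47 between successive stages of 1 genotype. In none of these pairs of groups was it above 0.1 for all 3 numbers, so the numbers were not taken to pair the libraries. Cdkn1a reached at most 0.279 FPKM before the 2-cell stage, where 1 fragment of it was worth about 0.0229 to 0.0368 FPKM. Small differences in Cdkn1a at those stages could not be resolved at this depth, and it was not tested between genotypes there.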
